A study of Homo sapiens with 16 samples.

Results

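Polysome loading was measured here in MIA PaCa-2 cells, an established human pancreatic cancer line, that had received only the DMSO vehicle for 12 hours. It is read from 8 of the 16 arrays of the series: 4 of cytosolic RNA and 4 of polysome RNA, each vehicle polysome array being set against the cytosolic array with the same replicate number. Polysome RNA is the pool of gradient fractions in which an mRNA carries more than 3 ribosomes, taken from a 10% to 50% sucrose gradient of the cytosolic extract and isolated with Trizol. The remaining 8 arrays are the same pair of RNA pools from cells given PP242, which inhibits the kinase mTOR, at 2.5 µM for 12 hours. All groups are the same unmodified line in the same medium, so the data describe 1 cell line, and the labels do not say whether the 4 replicates are separate cultures. If they are not, the p-values measure only the spread between these samples, which may be technical.

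An mRNA that is being translated carries several ribosomes at once and sediments deep in a sucrose gradient, whereas an mRNA held by repressors, an mRNA with a very short reading frame or an RNA that is not translated stays in the lighter fractions. The kinase mTOR acts on this step through 4E-BP1, which binds the cap-binding factor eIF4E, and mRNAs that begin with a 5-prime terminal oligopyrimidine (TOP) tract, such as those of ribosomal proteins, are the best known class under its control. Vehicle-treated cells give the loading of each mRNA while mTOR is not inhibited, the baseline for the series' question on translation downstream of mTOR and 4E-BP1.

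Levels are log2 values above the median of their own array, and a difference is polysome minus cytosolic RNA on that scale, given as the mean of 4 replicate pairs ± the standard error of the limma fit. Each difference is also given after quantile normalization, which makes the 8 arrays share 1 distribution, because the polysome arrays have a lower median (4.57 to 4.61 against 5.0 to 5.01 deposited log2 units) and a longer upper tail (the highest 1% of probe sets begin at 12.01 to 12.09 against 11.62 to 11.65). Each array reports an RNA relative to the other RNAs of its pool. The share of all mRNA on polysomes is therefore not measured, and in bulk RNA fewer cells carrying an RNA and less of it per cell cannot be told apart. The number of arrays limits the precision, with a median SD of 0.169 over genes for the 4 paired differences. The keratins KRT8 and KRT18 of simple epithelia were present, at mean levels of 6.43 and 8.05 in cytosolic RNA, and the tight junction gene CLDN4 at 2.45, while the epithelial adhesion genes EPCAM and CDH1, the splicing regulator ESRP1 and the transcription factor GRHL2 lay below the array median in both pools. Of 11 epithelial markers, 6 reached a mean level of 1 (log2 above the array median), namely KRT7, KRT8, KRT18, KRT19, CLDN4 and MUC1, and the summed level of the list ran from 18.42 to 19.92 over the cytosolic and from 26.35 to 28.49 over the polysome arrays. None of 10 leukocyte and none of 7 normal pancreas markers reached a level of 1, but 5 of 12 fibroblast markers (COL1A1, COL1A2, COL3A1, PDGFRB and THY1) and 2 of 10 endothelial markers (PECAM1 and CLDN5) did. That of the fibroblast list ran from 2.90 to 4.99 over the cytosolic and from 8.90 to 10.77 over the polysome arrays, that of the endothelial list from -7.76 to -6.93 and from -7.68 to -5.81, and the part of these lists in the results below was not tested.

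Most genes differed between the pools, and more were higher than lower in polysome RNA. Of 19775 genes, 10267 (51.9%) were called higher and 3391 (17.1%) lower at an adjusted p under 0.05 by limma. On the quantile scale 6478 (32.8%) were higher and 5709 (28.9%) lower, so that the share of called genes that were higher was 75.2% on the first scale and 53.2% on the second. The median difference over all genes was 0.25 on the median-centred and 0.03 on the quantile scale. Calls of the same direction on both scales, a criterion chosen after seeing the data, numbered 6475 higher (32.7%) and 3362 lower (17.0%), and 499 and 223 of them were at least 2-fold on both. A further 585 genes were higher on the median-centred and lower on the quantile scale, and 0 went the other way. The 4 cytosolic and 4 polysome values did not overlap for 8328 genes that were higher and 2453 that were lower on the median-centred scale.

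The median-centred difference varied with the level of the gene, and not in 1 direction. Its median was 0.23 for the 4269 genes below a mean level of -1, of which 2187 were higher and 405 lower. It was 0.04 at a level from -1 to 0, 0.28 from 2 to 3 and 0.85 from 6 to 9, while the quantile medians stayed between 0.00 and 0.08 over all 9 level ranges. Of 824 genes at a level from 5 to 6, 670 were higher and 67 lower (quantile 362 and 297). Of 700 genes from 6 to 9, 607 were higher and 32 lower (quantile 314 and 259). The direction of each gene list is therefore given on both scales, and counts for lists of bright genes stand beside these shares.

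**Figure D1:**
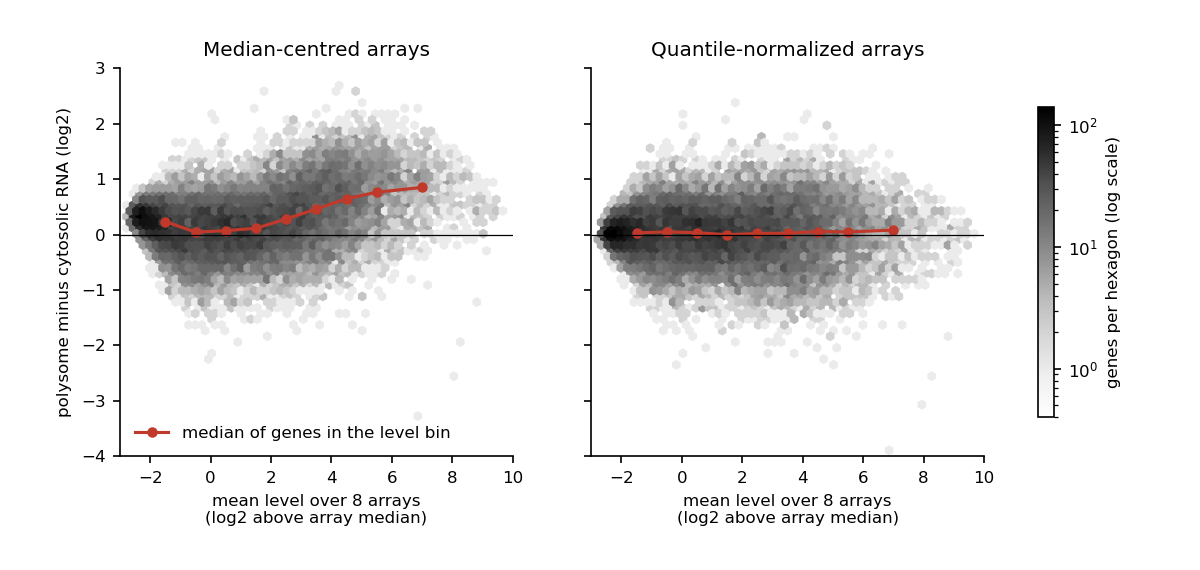
Polysome minus cytosolic RNA (log2, vertical axis) against the mean level over the 8 vehicle arrays (log2 above the array median, horizontal axis) for 19775 genes, with shading for the number of genes on a log scale and red points for the median of genes in each level range up to 9. On median-centred arrays at left the medians drop from 0.23 in the lowest range to 0.04 in the next and then climb to 0.85, and they lie near 0 on quantile-normalized arrays at right.

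The genes lowest in polysome relative to cytosolic RNA were mitochondrially encoded, ND2 and ND4 having the largest falls of all genes that met the naming criteria. The mitochondrial genome encodes a few subunits of the respiratory complexes and of ATP synthase, and their mRNAs are translated on mitochondrial ribosomes inside the organelle. Of 7 such mRNAs with a probe set, 5 were called lower and 0 higher, and all 7 were lower on the quantile scale; the nuclear genome holds copies of mitochondrial sequence that these probe sets may also read. ND2, a complex I subunit, stood at 8.31, 8.34, 8.70 and 8.79 in cytosolic replicates 1 to 4 and at 4.40, 4.95, 5.53 and 6.09 in polysome RNA. Every polysome value of ND2 was far below every cytosolic value. The difference was -3.29 ± 0.12 (adjusted p = 4.05e-12), or 9.80-fold lower in polysome RNA, and -3.90 on the quantile scale. ND4, of the same complex, was at 9.19, 9.22, 9.28 and 9.36 against 6.60, 6.77, 6.49 and 7.11, a difference of -2.52 ± 0.07. For ATP6, an ATP synthase subunit, cytosolic values of 9.27, 9.18, 9.25 and 9.30 stood against 6.89, 7.08, 7.34 and 8.04, and replicate 4 was the highest in polysome RNA for ND2, ND4 and ATP6 alike. The groups did not overlap for any of the 3.

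The cytochrome oxidase subunits encoded in mitochondria did not move as 1 group. COX2 was at 9.42, 9.43, 9.43 and 9.46 in the cytosol and 7.84, 8.2, 8.07 and 8.54 on polysomes, a difference of -1.27 ± 0.08. COX3 was at 5.35, 4.80, 4.72 and 4.73 against 3.41, 3.60, 2.84 and 4.09, a difference of -1.42 ± 0.15. Both were lower in 4 of 4 replicate pairs with no overlap. COX1 had paired differences of 0.41, 0.60, -0.28 and 0.03 (mean 0.19, adjusted p = 0.102) and ND6, the complex I subunit read from the other strand, of -0.71, -0.19, 0.87 and 0.10 (mean 0.02, adjusted p = 0.928). The sign of these last pairs varied between replicates, and neither gene was called on the median-centred scale. The median over the 7 mRNAs was -1.42, with medians of the single replicate pairs from -1.94 to -0.92, and -1.96 on the quantile scale.

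Nuclear genes for the same organelle stood on the other side. Among subunits of complex I, which passes electrons from NADH into the respiratory chain, 30 of 33 were higher and 1 was lower (median 1.08; quantile scale 23 higher, 6 lower, median 0.34). NDUFB7, an accessory subunit, was at 3.79, 3.92, 3.63 and 3.69 in cytosolic and 6.10, 6.13, 5.70 and 5.73 in polysome RNA. All 4 polysome values were higher, by 2.16 ± 0.07 on average (4.46-fold, adjusted p = 2.15e-12), and by 1.53 on the quantile scale. Complexes III and IV had 16 of 19 members higher and 2 lower (quantile 11 and 6; median 1.08, quantile 0.30), among them COX5B (1.84 ± 0.06) and UQCRC1 (1.76 ± 0.07). ATP synthase had 15 of 16 higher and 1 lower (quantile 8 and 4, median 0.91, quantile median 0.17), led by ATP5PD (1.76 ± 0.06). The median levels of the lists for complex I, complexes III and IV and ATP synthase were 6.1, 6.98 and 7.09. At a level from 6 to 9, 607 of 700 genes of any kind were higher and 32 lower (quantile 314 and 259). Proteins of the mitochondrial ribosome, which are made in the cytosol and imported, were higher in 72 of 75 and lower in 1 (median 1.05; quantile scale 54 higher, 8 lower, median 0.40). MRPS26 of its small subunit was at 4.37, 4.41, 4.52 and 4.59 against 6.20, 6.41, 6.39 and 6.46. These values did not overlap, and the difference was 1.89 ± 0.07 on the median-centred and 1.20 on the quantile scale.

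**Figure D2:**
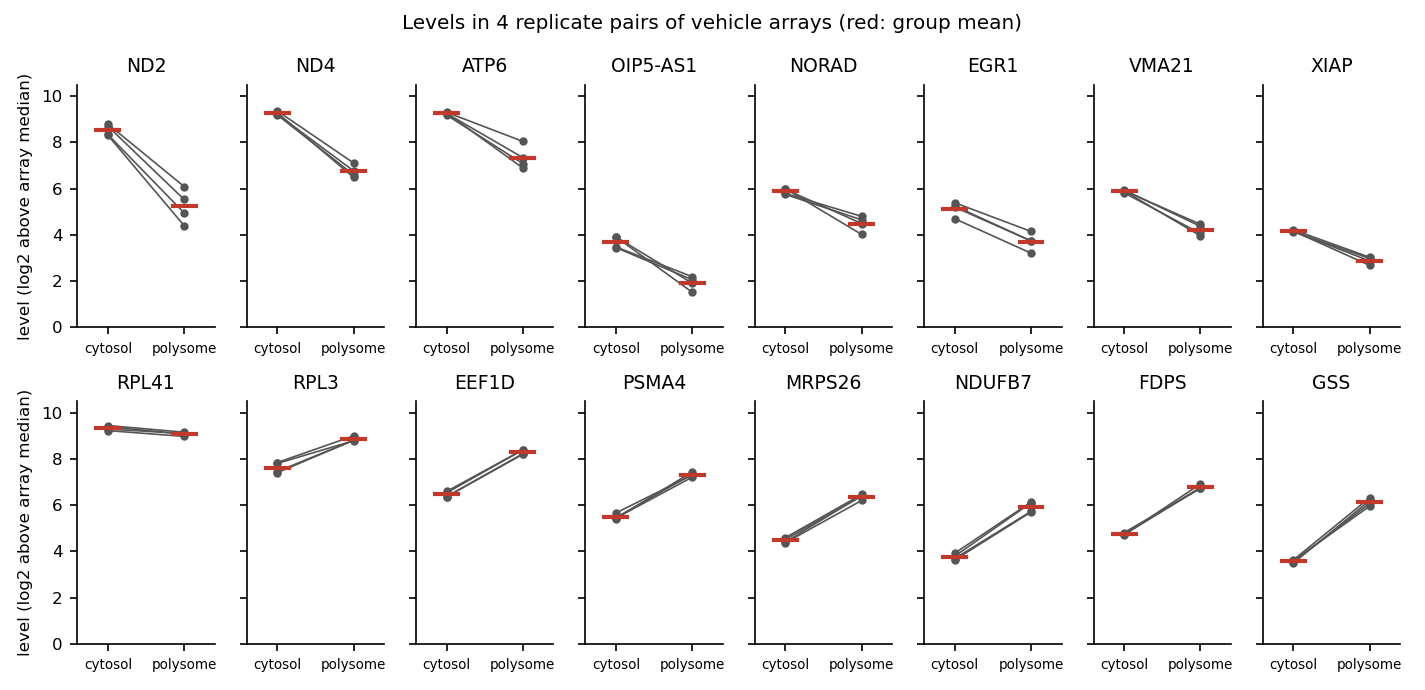
Levels (log2 above the array median, vertical axis) of 16 genes in cytosolic and polysome RNA of vehicle-treated cells, with a line for each of the 4 replicate pairs and red bars for the group means. ND2 drops from a mean of 8.54 to 5.24, RPL41 from 9.34 to 9.07, and NDUFB7 climbs from 3.76 to 5.92.

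The lists of long non-coding RNAs and of snoRNA host genes, both short and chosen by name, had more members lower than higher on polysomes. Long non-coding RNAs as a whole did not on the median-centred scale. Of 2657 genes with that RefSeq biotype, 1068 were higher and 533 lower (median 0.13). On the quantile scale 590 were higher and 682 lower (median -0.01). At a level of at least 1, 290 were left, with 90 higher and 85 lower. On the quantile scale 53 of these were higher and 123 lower (median -0.10). Of the 27 listed long non-coding RNAs, 14 were lower and 8 higher (quantile 16 lower, 5 higher; median -0.27, quantile -0.47). RefSeq gives TUG1, TINCR and BLACAT1 of this list as protein-coding. OIP5-AS1, a cytoplasmic RNA that binds the protein HuR, was at 3.91, 3.91, 3.45 and 3.48 in cytosolic and 1.52, 1.91, 2.06 and 2.19 in polysome RNA. No polysome value reached the lowest cytosolic one, and the difference was -1.77 ± 0.14 (adjusted p = 9.09e-09; quantile scale -2.11). NORAD, a long RNA that sequesters PUMILIO proteins, was at 5.99, 5.97, 5.75 and 5.79 against 4.02, 4.49, 4.65 and 4.80 (-1.39 ± 0.12), again without overlap. JPX, a non-coding RNA of the X chromosome, was also lower (-1.46 ± 0.16). MALAT1, which resides in nuclear speckles, was called higher on the median-centred scale (0.55 ± 0.13) and stood at -0.18 on the quantile scale, and its 12 probe sets disagreed. Host genes of small nucleolar RNAs, whose spliced RNAs are short-lived and carry few long reading frames, were lower in 5 of 8 and higher in 3 (quantile 5 and 1; median -0.28, quantile -0.73). The 3 were SNHG10, SNHG17 and TAF1D, which is a protein-coding gene. The hosts GAS5 and ZFAS1 are known TOP RNAs: GAS5 differed by -0.61 ± 0.10 at a level below the array median, and ZFAS1 by -0.35 ± 0.06. SNHG32 had the largest difference of these hosts, -0.94 ± 0.07.

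The other genes with the largest falls are given next. MEGF9, a membrane protein with EGF-like repeats, was at 2.72, 2.73, 2.60 and 2.69 in cytosolic and 0.84, 0.95, 0.70 and 1.06 in polysome RNA (-1.80 ± 0.09), with no overlap. VMA21, an assembly factor of the vacuolar proton pump, was at 5.90, 5.82, 5.94 and 5.91 against 3.96, 4.06, 4.37 and 4.46 (-1.68 ± 0.08), although 1 of its other probe sets was called higher on the quantile scale. TMEM170A was at 4.53, 4.57, 4.41 and 4.40 against 2.61, 2.80, 2.75 and 3.05 (-1.68 ± 0.09), and here too the pools were apart. LASP1NB, the long non-coding RNA LOC102723847, ZNF738, the deubiquitinase YOD1 and GK5 differed by -2.28 to -1.68, with polysome means below the array median.

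The 12 largest rises began with ATAD2, a bromodomain ATPase of chromatin. It was at 2.85, 2.27, 3.40 and 2.94 in cytosolic and 5.51, 5.25, 5.81 and 5.56 in polysome RNA. The groups lay far apart, and the difference of 2.67 ± 0.09 (6.35-fold, adjusted p = 2.15e-12; quantile scale 2.14) was the largest among genes that met the naming criteria. GTF2F1, a subunit of the general transcription factor TFIIF, was at 2.86, 2.80, 2.79 and 2.55 against 5.40, 5.18, 5.55 and 5.26 (2.60 ± 0.08). UBN1, of the HIRA histone chaperone complex, was at 3.83, 3.42, 4.10 and 3.72 against 6.19, 6.02, 6.41 and 6.16 (2.43 ± 0.07), and neither gene had overlapping groups. GSS, glutathione synthetase, was at 3.50, 3.63, 3.54 and 3.60 against 6.20, 6.32, 6.08 and 5.96 (2.57 ± 0.08). NUDT1, which hydrolyses oxidized nucleotides, was at 3.39, 3.50, 3.54 and 3.52 against 5.92, 6.07, 6.16 and 6.04 (2.56 ± 0.07), with paired differences from 2.52 to 2.62. The rest were TMEFF2 (2.57), UBXN4 (2.33), SRRM2 (2.24), CPNE8 (2.24), EP400 (2.23), TCF25 (2.23) and DMAP1 (2.23). EP400 and DMAP1 belong to the same histone acetyltransferase complex. UBXN4 and CPNE8 each had 2, and SRRM2 and EP400 each 1, further probe set called lower on the quantile scale.

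Ribosomal protein mRNAs, the classical TOP class, are shown first by the sequence around their annotated start. Each line below gives 10 bases before and 20 from the start of a RefSeq gene (GRCh38.p14), 5′ to 3′, with the run of pyrimidines that begins with C at the start in capitals; PSMB5 and MRPL12 are shown as genes of high loading with no such run, chosen after their values were seen, as was RPL32, whose annotated start lacks the run.
RPL3: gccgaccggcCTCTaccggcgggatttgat
RPL41: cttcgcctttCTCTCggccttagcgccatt
RPS6: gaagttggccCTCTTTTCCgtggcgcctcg
RPL32: acgacccatcagcccttgcgcgccaccgtc
EEF1A1: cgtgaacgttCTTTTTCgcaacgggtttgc
EEF2: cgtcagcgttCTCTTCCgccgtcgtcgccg
TPT1: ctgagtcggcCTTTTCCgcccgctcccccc
PSMB5: cttctcaaagatggccgacctcacttccct
MRPL12: cggctagagcgtcatttccggctcgaatgc

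These windows lie, in the same order, at chr22:39319604-39319633 (minus strand), chr12:56116623-56116652 (plus), chr9:19380217-19380246 (minus), chr3:12841546-12841575 (minus), chr6:73521013-73521042 (minus), chr19:3985444-3985473 (minus), chr13:45341164-45341193 (minus), chr14:23035201-23035230 (minus) and chr17:81703357-81703386 (plus). The runs are 4 bases in RPL3, 5 in RPL41, 9 in RPS6 and 7 in EEF1A1, EEF2 and TPT1. A start with C followed by pyrimidines to a run of at least 5 was found on the gene's own strand in 67.9% of 28 large-subunit and 75% of 20 small-subunit ribosomal protein genes and in 73.3% of 15 other TOP genes, against 5.50% of 8121 protein-coding genes at a level of at least 1, 5.97% of 67 mitochondrial ribosomal protein genes and 0 of 22 proteasome genes. The annotated start need not be the one used in these cells. The 447 genes with such a start had a median difference of 0.43 and the other 7674 of 0.42 (quantile scale 0.00 and 0.03).

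Cytosolic ribosomal proteins were mostly higher on polysomes on the median-centred scale and divided on the quantile scale. Of 33 large-subunit genes 28 were higher and 3 lower (median 0.56), and on the quantile scale 11 were higher and 13 lower (median -0.05; cyclic loess -0.40). Of 21 small-subunit genes 19 were higher and 0 lower (median 0.46), with 3 higher and 8 lower on the quantile scale (median -0.07; cyclic loess -0.53). Processed copies of these genes are many, and several of the probe sets may read them. RPL41, which encodes the shortest ribosomal protein, was at 9.39, 9.44, 9.22 and 9.29 in cytosolic and 9.07, 9.15, 8.97 and 9.09 in polysome RNA. It was lower in all 4 pairs with no overlap, by -0.27 ± 0.05 (adjusted p = 0.000376; quantile scale -0.74), and RPL39, also very short, differed by -0.02 ± 0.05 (quantile scale -0.53). RPL3, the longest of the shown ribosomal proteins, was at 7.80, 7.84, 7.40 and 7.45 against 8.78, 8.99, 8.80 and 8.80. Its polysome values were all higher, by 1.22 ± 0.07 (quantile scale 0.50). RPL27A had the largest difference of the large-subunit list, 1.28 ± 0.09 (quantile 0.89), and the lowest of that list was -0.815. Loading was not compared with protein length. RPL19 (1.02, quantile 0.44) and RPS9 (1.08, quantile 0.37) were near RPL3. RPS6, the target of the S6 kinases, differed by 0.59 (quantile 0.02), with 1 of its 4 probe sets called lower on the quantile scale.

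Among 22 other TOP mRNAs, 16 were higher and 3 lower (median 0.45), and 6 were higher and 11 lower on the quantile scale (median -0.15). EEF1D, of the complex that reloads elongation factor 1A, was at 6.36, 6.37, 6.59 and 6.53 in cytosolic and 8.2, 8.22, 8.39 and 8.39 in polysome RNA, and its paired differences of 1.84, 1.85, 1.80 and 1.86 agreed closely. It was higher by 1.84 ± 0.06 (quantile scale 1.05). The elongation factors EEF1A1 (0.39, quantile 0.05, loess -0.66) and EEF2 (0.70, quantile 0.15, loess -0.30) differed less. For EEF1A1, 2 of 6 probe sets were called lower on the quantile scale. TPT1, translationally controlled tumour protein, was higher by 0.35 on the median-centred and lower on the quantile scale (-0.21), and the poly(A)-binding protein mRNA PABPC1 was at -0.12 (adjusted p = 0.087) and -0.75. Of the 2 probe sets of PABPC1, 1 was called lower and 1 higher on the quantile scale.

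Most genes for the proteasome, tRNA charging and ribosome assembly were higher in polysome RNA. All 27 measured proteasome subunits were higher, and 24 of them with 0 lower on the quantile scale (median 1.30, quantile 0.54). PSMA4, of the catalytic core, was at 5.66, 5.42, 5.46 and 5.44 in cytosolic and 7.30, 7.44, 7.34 and 7.21 in polysome RNA. The groups were apart, with a difference of 1.83 ± 0.07 (3.55-fold; quantile scale 1.06), and PSMA7 was next (1.76). All 17 aminoacyl-tRNA synthetases were higher (quantile scale 12 higher, 2 lower; median 1.22, quantile 0.47), led by VARS1 (1.93 ± 0.09), with 1 further probe set lower, and including EPRS1 (1.67) and HARS1 (1.58). Of 41 ribosome biogenesis factors 39 were higher and 1 lower (quantile 27 and 9, median 1.00, quantile median 0.41), with RRP1 (1.98) in front. RRP12 (1.83), with 1 probe set called lower on the quantile scale, and BYSL (1.76) came next. Initiation factors had 24 of 31 higher and 3 lower (quantile 17 and 9; median 0.86, quantile 0.24). EIF2B4, of the factor that recharges eIF2, differed by 1.79, and EIF4G1, the scaffold of the cap-binding complex, by 1.69.

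EIF4E, the cap-binding factor itself, was among the 3 that were lower. It was at 4.39, 4.25, 4.30 and 4.09 in cytosolic and 3.69, 3.67, 3.48 and 3.77 in polysome RNA, without overlap, a difference of -0.60 ± 0.09 (adjusted p = 1.07e-05; quantile scale -1.12). Its repressor EIF4EBP1 was at -0.17 (adjusted p = 0.0787; quantile scale -0.71). Among 29 mTOR pathway genes 15 were higher and 7 lower (median 0.24), and on the quantile scale 8 and 13 (median -0.17). The shares over all genes were 51.9% and 17.1%, and 32.8% and 28.9% on the quantile scale. The mTOR pathway genes ran from RPS6KB1, the S6 kinase 1 gene, at -0.95 ± 0.08 to RRAGA, a GTPase that signals amino acids to mTOR, at 1.03 ± 0.07.

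Chaperones and splicing proteins were higher on the median-centred scale and divided on the quantile scale. The median levels of these lists ran from 5.87 to 6.59, where most genes of any kind were higher on the median-centred scale (670 of 824 at a level from 5 to 6). Endoplasmic reticulum chaperones had 22 of 30 higher and 2 lower (quantile 12 and 11; median 0.69, quantile -0.03), among them CRELD2 (1.91) and HSP90B1 (1.56). Cytosolic chaperones had 19 of 23 higher and 2 lower (quantile 10 and 6; median 0.87, quantile 0.09), with BAG3 (1.85) and the chaperonin subunit CCT3 (1.44). SR and hnRNP splicing proteins had 29 of 35 higher and 0 lower (quantile 14 and 14; median 0.71, quantile -0.01). HNRNPL differed by 1.46, while SRSF3 was called higher at 0.15 (adjusted p = 0.0493) on the median-centred and lower (-0.65) on the quantile scale. Sm and LSm proteins of the spliceosome had 18 of 20 higher and 1 lower (quantile 7 and 7; median 0.66, quantile -0.04), with SNRPA at 1.48.

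Gene groups of metabolism, the lysosome, DNA replication and mitosis had more members higher than lower on both scales. On the quantile scale the excess was least for mitosis genes, and 32.8% of all genes were higher and 28.9% lower there. All 26 nucleotide synthesis enzymes were higher (quantile 18 higher, 2 lower; median 1.06, quantile 0.43), including MTHFD1 (2.06) and ATIC (1.67). Glycolysis had 17 of 19 higher and 0 lower (quantile 13 and 1; median 0.95, quantile 0.32), with HK1 at 1.59, ALDOA at 1.32 and GAPDH at 0.64 (quantile 0.19, loess -0.39). In cholesterol synthesis 15 of 18 were higher and 2 lower (quantile 10 and 3; median 0.65, quantile 0.22). FDPS, which makes farnesyl diphosphate, was at 4.73, 4.72, 4.73 and 4.81 against 6.76, 6.91, 6.74 and 6.72. The groups did not overlap, the difference was 2.04 ± 0.07 (4.10-fold; quantile scale 1.32), and EBP of the same pathway was at 1.94. Lysosome genes had 29 of 31 higher and 1 lower (quantile 16 and 8; median 0.88, quantile 0.21), with the protease CTSD at 1.77. DNA replication had 33 of 42 higher and 2 lower (quantile 22 and 10; median 0.91, quantile 0.24), with GINS4 (1.80) and the helicase subunit MCM5 (1.75). Mitosis genes had 33 of 41 higher and 2 lower (quantile 15 and 12, median 0.67, quantile median 0.05), led by CDC20 (1.65). AURKB (1.58) and TOP2A (1.52), each with 1 probe set called lower on the quantile scale, and KIF2C (1.46) came next.

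**Figure D3:**
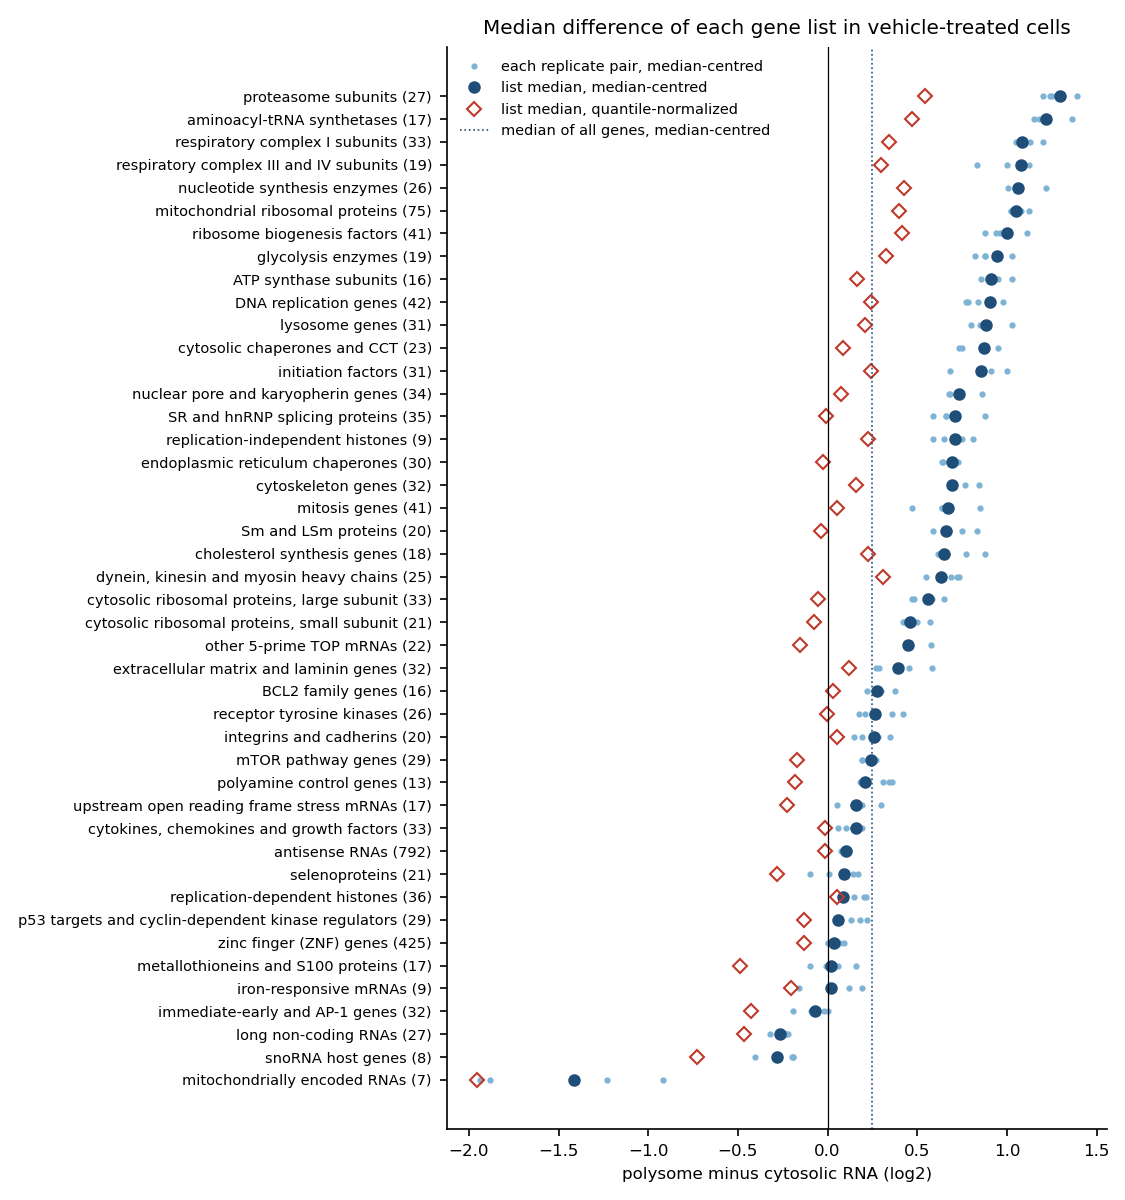
Median polysome minus cytosolic difference (log2, horizontal axis) of each gene list in vehicle-treated cells, with the number of measured genes in brackets, dark points for median-centred arrays, small points for each replicate pair, open diamonds for quantile-normalized arrays and a dotted line at the median of all genes (0.25). Proteasome subunits are at the top (1.30, quantile 0.54) and mitochondrially encoded RNAs at the bottom (-1.42, quantile -1.96).

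Immediate-early mRNAs, which are induced within minutes of a stimulus and decay fast, were more often lower than higher. Of 32 immediate-early and AP-1 genes 11 were lower and 7 higher (quantile 22 lower, 5 higher; median -0.07, quantile -0.43). EGR1, an immediate-early transcription factor, was at 5.20, 5.39, 4.70 and 5.25 in cytosolic and 3.74, 4.15, 3.21 and 3.74 in polysome RNA. Its pools did not overlap, and the paired differences lay between -1.51 and -1.24, with a mean of -1.43 ± 0.07 (adjusted p = 7.75e-11; quantile scale -2.0). ZFP36L1, an mRNA decay factor, was at -1.11 and KLF6 at 1.26, each with further probe sets called the other way. MYC was higher by 0.42 on the median-centred and lower on the quantile scale (-0.28).

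Of 16 genes on the list of BCL2 family genes, which control apoptosis, 10 were higher and 2 lower (quantile 4 and 4; median 0.28, quantile 0.03). The list also holds XIAP, a gene outside that family, which is among its lower members on both scales. Over all genes 51.9% were higher and 17.1% lower (quantile 32.8% and 28.9%). Of 29 p53 targets and cyclin-dependent kinase regulators, 12 were higher and 8 lower (quantile 6 and 13; median 0.06, quantile -0.13). XIAP, an inhibitor of caspases, was at 4.16, 4.14, 4.15 and 4.22 in cytosolic and 2.68, 2.98, 2.87 and 3.03 in polysome RNA, with no overlap. The difference was -1.28 ± 0.08 (adjusted p = 7e-10; quantile scale -1.73), and 5 of its 7 probe sets were called lower on the quantile scale with 0 higher. MCL1 (-0.56), MDM2 (-0.64), CCNG2 (-1.14) and CDKN1B (-0.37) were lower as well, MCL1 and MDM2 with 1 probe set called higher. CCND1, cyclin D1, was higher by 1.29 ± 0.08 (quantile 0.80) with 1 of its 2 probe sets called the other way, and BID was higher by 1.17. HIF1A was lower (-0.20, adjusted p = 0.0122; quantile -1.0), and VEGFA was at -0.10 (adjusted p = 0.305; quantile -0.57).

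Upstream open reading frames, short frames that ribosomes meet before the main one, mark a list of stress mRNAs of which 8 of 17 were higher and 3 lower (quantile 4 and 9; median 0.16, quantile -0.23). The counts of this and the lists below stand beside 51.9% higher and 17.1% lower among all genes (quantile 32.8% and 28.9%). ATF4, the transcription factor of the integrated stress response, was called higher at 0.20 ± 0.07 (adjusted p = 0.0145) on the median-centred and lower at -0.50 on the quantile scale. ATF5 (0.00, adjusted p = 1.0; quantile -0.49), DDIT3 (0.07, adjusted p = 0.531) and PPP1R15A (0.16, adjusted p = 0.149) did not pass on the median-centred scale. PPP1R15B, a phosphatase subunit that acts on eIF2, was lower by -0.97 ± 0.09 (quantile -1.38). In polyamine control 7 of 13 were higher and 2 lower (quantile 3 and 7). AZIN1, the antizyme inhibitor, was at 3.91, 3.92, 3.93 and 4.05 against 2.64, 2.89, 3.02 and 3.26. No polysome value reached the cytosolic ones, and the difference was -1.0 ± 0.09 (quantile -1.44). Its partners ODC1 (0.62, quantile -0.15) and OAZ1 (0.69, quantile -0.04) changed sign between the scales, AMD1 was at -0.05 (adjusted p = 0.626; quantile -0.67), and PAOX was higher at 1.23. Among 21 selenoproteins 9 were higher and 8 lower (quantile 6 and 11; median 0.09, quantile -0.28), with the cytosolic thioredoxin reductase TXNRD1 at -0.62 and its mitochondrial counterpart TXNRD2 at 1.68. Of 9 iron-responsive mRNAs 3 were higher and 1 lower (quantile 2 and 3), the ferritin mRNA FTL being at 0.00 (quantile -0.54) and the transferrin receptor TFRC at 0.02 (quantile -0.73).

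Over the panel of 42 measured genes tied to translational control, 19 were higher and 13 lower on the median-centred scale, and 4 were higher and 28 lower on the quantile scale. The 4 were CCND1, DYNC1H1, EEF2 and GAPDH. DYNC1H1, the dynein heavy chain and the mRNA with the longest reading frame of the panel, differed by 1.29 ± 0.07 (quantile 0.54), with 1 of its 7 probe sets called lower. ACTB (0.43, quantile -0.01, loess -0.60) and VIM (0.57, quantile 0.10, loess -0.46) took different signs by scaling, as did GPX4 (0.39, quantile -0.36), SAT1 (0.21, quantile -0.37) and XBP1 (0.34, quantile -0.02). BCL2L1 was higher by 0.47 (quantile 0.06), and 2 of its 4 probe sets were called lower on the quantile scale.

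Different probe sets of 1 gene often disagreed. Of 10523 genes with several probe sets, fitted singly as an alternative chosen after seeing the data, 2795 (26.6%) had probe sets called in both directions on the median-centred and 2813 (26.7%) on the quantile scale. In 13 of them both sides were at least 2-fold on the quantile scale with a level of at least 1. NUCKS1, a chromatin protein, had 1 probe set at 1.90, 1.97, 1.85 and 1.79 in cytosolic and 3.64, 3.75, 3.31 and 3.44 in polysome RNA, and another at 3.77, 3.86, 2.88 and 3.00 against 2.21, 2.72, 1.74 and 2.20. The first was higher and the second lower in every pair. For DPP7, a peptidase, the values were 3.12, 3.10, 3.21 and 3.29 against 4.76, 4.90, 4.70 and 4.85 with 1 probe set and 1.87, 1.93, 2.14 and 2.04 against 0.70, 0.82, 0.78 and 0.90 with the other. WNK1, a kinase of ion transport, differed by 1.60 and -1.05 on the quantile scale, and RBM25, a splicing factor, by 1.22 and -1.09. Where these probe sets lie in the transcripts was not analysed here, and the genes were chosen after their values were seen.

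**Figure D4:**
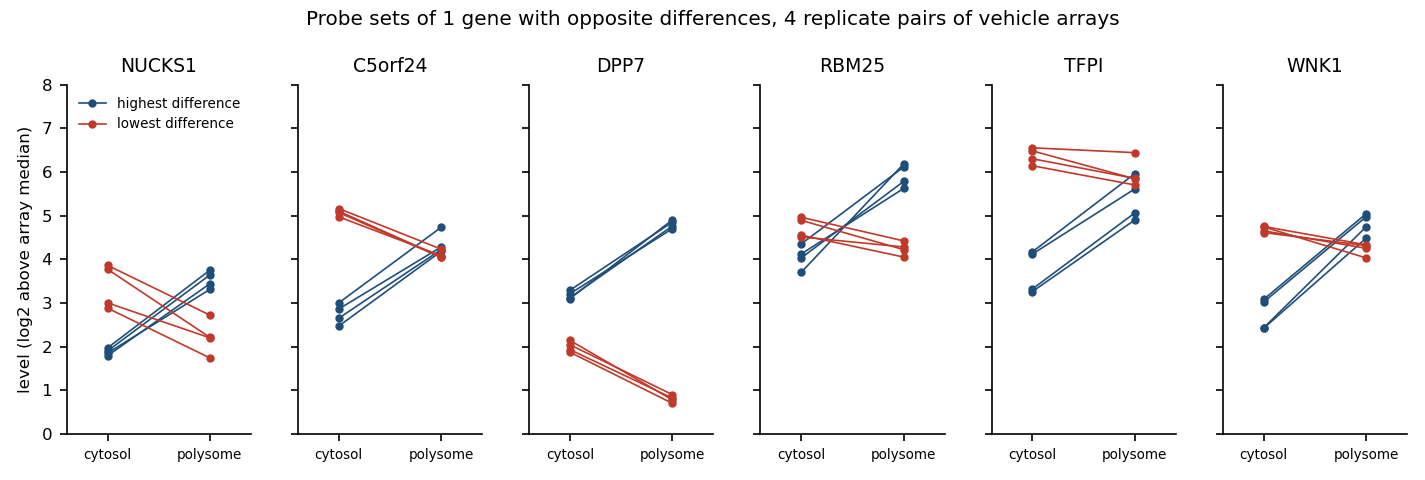
Levels (log2 above the array median, vertical axis) of the probe sets with the highest (blue) and the lowest (red) difference in each of 6 genes, in cytosolic and polysome RNA, with a line for each of the 4 replicate pairs. In WNK1 and RBM25, as in the other 4, the blue lines climb and the red lines drop.

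In PP242-treated cells the loading of most genes had the same sign. Of the 9837 genes called in 1 direction on both scales in vehicle, 9366 had a difference of that sign with PP242, and the differences of the treatments correlated at a Spearman rho of 0.864 across genes, which are not independent replicates. The difference between PP242 and vehicle was called in 0 of 19775 genes (0.0%) by limma, with 2860 at an unadjusted p under 0.05 and a smallest adjusted p of 0.219. An alternative chosen after seeing the data took each replicate number within a treatment as a block. It also gave 0 calls by limma, with 2920 at an unadjusted p under 0.05 and a smallest adjusted p of 0.0723. The cytosolic PP242 arrays varied most: the median SD of a gene was 0.25 there, against 0.122 in cytosolic and 0.161 in polysome RNA of vehicle cells, and the median SD of the paired differences was 0.258 with PP242.

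Mitochondrially encoded mRNAs had a median of -0.38 with PP242 against -1.42 in vehicle. ND2 differed by -3.37, -2.56, -2.26 and -0.97 in PP242 replicates 1 to 4 and by -3.91, -3.39, -3.17 and -2.70 in vehicle. COX3 differed by -0.98, 0.37, -0.15 and 1.72 against -1.94, -1.20, -1.88 and -0.64. In both genes replicate 4 was the highest under either treatment, and the treatments overlapped. They did not overlap for ND4, at -1.98 to -0.78 with PP242 against -2.79 to -2.25, nor for COX2, at -0.87 to 0.37 against -1.58 to -0.92. Set against the vehicle pair of the same number, PP242 was higher by 0.54, 0.83, 0.91 and 1.73 for ND2 and by 0.96, 1.57, 1.73 and 2.36 for COX3. It was higher in 28 of 28 such pairs over the 7 mRNAs, which share their arrays, but none of the 7 was called. How many of all genes were higher in every such pair, or did not overlap between the treatments, was not counted. The change was 1.00 for ND2 (adjusted p = 0.285) and 1.66 for COX3 (adjusted p = 0.262), and the other 5 mRNAs had adjusted p from 0.219 to 0.545. RPL41 was at -0.02, -0.15, 0.00 and -0.05 with PP242, all above its 4 vehicle values, a change of 0.21 (adjusted p = 0.315). PSMA4 (1.87 against 1.83) and NDUFB7 (2.11 against 2.16) had nearly the same means, within the spread of their pairs.

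**Figure D5:**
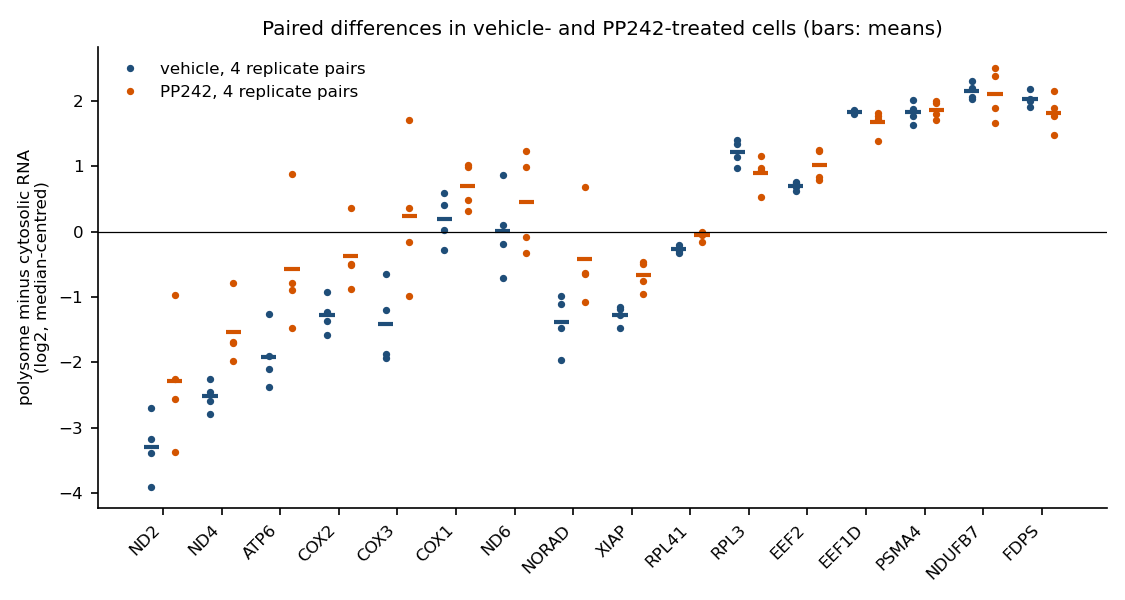
Paired polysome minus cytosolic differences (log2, vertical axis) of 16 genes in vehicle (blue) and PP242 (orange), with a point for each replicate pair and a bar for the mean. ND2 has means of -3.29 and -2.29, and PSMA4 of 1.83 and 1.87.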

How the data were processed

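Cytosolic and polysome RNA was hybridized to Affymetrix 3-prime arrays after labelling with the 3' IVT Express kit, per the labels' protocols. The authors deposited log2 values between 1.65 and 14.61, which per the submitters' processing notes came from RMA; no source used here gives its version, its background settings or whether the pools were normalized jointly. Of 54613 probe sets, 41091 list 1 gene in the platform table and were used, 1801 list several and 11721 are unnamed here; each of 19775 genes is represented by its brightest probe set on average over the 16 arrays. Each array was centred on its median. limma 3.58.1 in R 4.3.3 (lmFit, eBayes with trend) fitted polysome against cytosolic RNA on the 8 vehicle arrays with the replicate number as a block, and PP242 minus vehicle on all 16; tests are two-sided, adjusted by Benjamini-Hochberg over all genes and called under 0.05. Errors after ± are standard errors of the contrast, with 4 pairs. Steps were tested on simulated data.

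Arrays were paired by replicate number, and the labels state that polysome RNA came from the cytosolic extract. Same-numbered arrays deviated together (correlations 0.351 to 0.501 in 4 of 4 pairs), but only 2 of 4 polysome arrays correlated best with their own number. Polysome replicate 1 correlated at 0.447 with cytosolic replicate 2 and at 0.402 with cytosolic replicate 1, so these correlations do not single out the same-numbered pairs. Replicates 1 and 2 also resembled each other, as did 3 and 4. Starts come from a RefSeq table (GRCh38.p14) of 250 bases before to 50 after each start, matched by symbol for 15382 genes.

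Members, lists and tests were chosen with earlier results of these data known. Genes named are the 12 genes that rose most and the 12 that fell most among calls with 1 sign in 4 of 4 pairs and a mean of at least 1 in the higher pool, up to 4 members of each list with the largest called difference, a panel of 45 genes (42 measured), and all 7 mitochondrially encoded mRNAs; marker genes and the probe set examples are named as such. The clause on genes without a protein entry could not be used. Alternatives were other scalings, no block, all 16 arrays, the mean of probe sets, other eBayes settings, level filters, array weights and left-out replicates.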

Additional observations from a re-analysis of the deposited data

Results flagged for a closer look

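In 56 groups of 4 arrays, the 2 pools of the 28 genes whose values are printed for each array, 5 had 1 array far from the other 3 (Dixon's criterion, 95% level); chance alone marks about 1 in 20 groups. COX3 in cytosolic RNA was at 5.35 in replicate 1 against 4.72 to 4.80 in the others. RPL3 in polysome RNA was at 8.99 in replicate 2 against 8.78 to 8.80. PSMA4 in cytosolic RNA was at 5.66 in replicate 1 against 5.42 to 5.46. FDPS in cytosolic RNA was at 4.81 in replicate 4 against 4.72 to 4.73, and AZIN1 in cytosolic RNA at 4.05 in replicate 4 against 3.91 to 3.93. In each of the 5 genes the pools did not overlap with that array included.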

How the results depend on the processing

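Scaling decided the direction of many genes, and the other choices did so for few. In vehicle cells the genes called, 13658 in all (10267 higher, 3391 lower), were 4498 higher and 8773 lower with deposited values not centred, 6478 and 5709 with quantile normalization, and 6328 and 5859 with cyclic loess. Centring on the 75th percentile gave 5176 lower, as did centring on the median of the brighter genes. Keeping genes at a level of at least 1 left 8273 calls (6522 higher, 1751 lower) among fewer genes tested. Requiring 1 direction on both scales, added after seeing the data, left 6475 higher. Leaving out 1 replicate gave 12478 to 12911 calls (9426 to 9817 higher, 3052 to 3143 lower). Without the replicate block, that is without the pairing, 12368 genes were called, 9417 higher and 2951 lower. The PP242 minus vehicle comparison gave 0 calls under every setting run, including without the block and without each replicate.

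Over 144 described genes and up to 19 settings, 2579 of 2728 comparisons kept direction and call, 58 lost and 33 gained the call, and 58 reversed, 4 of these outside the scalings. Reversed with quantile normalization were COX1 (-0.32), ND6 (-0.57), TPT1 (-0.21), ACTB (-0.0089), MYC (-0.28), ATF4 (-0.50), ODC1 (-0.15), OAZ1 (-0.037), SAT1 (-0.37), FTL (-0.54), TFRC (-0.73), GPX4 (-0.36), MALAT1 (-0.18), SRSF3 (-0.65) and XBP1 (-0.022). With cyclic loess these were COX1 (-0.82), ND6 (-0.57), RPS6 (-0.39), EEF1A1 (-0.66), EEF2 (-0.30), TPT1 (-0.64), GAPDH (-0.39), ACTB (-0.60), VIM (-0.46), MYC (-0.26), ATF4 (-0.47), ODC1 (-0.15), OAZ1 (-0.25), SAT1 (-0.37), FTL (-0.995), TFRC (-0.90), GPX4 (-0.35), MALAT1 (-0.17), SRSF3 (-0.68), XBP1 (-0.038) and S100A4 (-0.13). With deposited values not centred they were ND6 (-0.39), EEF1A1 (-0.015), TPT1 (-0.05), ATF4 (-0.20), DDIT3 (-0.34), PPP1R15A (-0.25), SAT1 (-0.20), FTL (-0.40), TFRC (-0.39), GPX4 (-0.012), SRSF3 (-0.26) and XBP1 (-0.068). With either of the brighter centrings they were FTL (-0.16), TFRC (-0.14) and SRSF3 (-0.012), and with the mean of all probe sets PABPC1 (0.16), MALAT1 (-0.13), BCL2L1 (-0.16) and SRSF3 (-0.031). Of 49 list medians, 17 changed sign with quantile normalization, 18 with cyclic loess and at most 2 without any 1 replicate. The comparison with protein length was not run, as no protein table was used here. Genes near or below the array median have the least signal over background.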

Other observations

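Of 425 zinc finger (ZNF) genes, a large family of DNA-binding proteins, 149 were higher and 127 lower in polysome RNA, with a median of 0.04 (quantile -0.13; 83 higher, 174 lower). ZNF618 (1.71, with 1 probe set called lower on the quantile scale) and ZNF622 (1.57) were at the upper and ZNF529 (-1.57, with 1 probe set called higher) at the lower end. Among 792 antisense RNAs, 296 were higher and 178 lower (median 0.10), and 173 higher and 224 lower on the quantile scale (median -0.01). They ran from OIP5-AS1 (-1.77) to HMMR-AS1 (1.64, quantile 1.56), whose cytosolic values lay below the array median. SEC24B-AS1 (-1.43) and DHRS4-AS1 (-1.31) were also lower. The counting of an antisense RNA rests on which strand its probes read. By RefSeq biotype at a level of at least 1, 9714 protein-coding genes had a median of 0.40 and 290 long non-coding RNAs of 0.04 (quantile 0.03 and -0.10). Replication-dependent histones, whose mRNAs mostly lack a poly(A) tail, had 16 of 36 higher and 8 lower (median 0.09), with H2BC15 at -1.16. On the quantile scale 13 were higher and 11 lower (median 0.05). Of 9 replication-independent histones 8 were higher and 1 lower (median 0.71, quantile 0.22), with H1-10 at 1.33. The lists differ in median level, -0.15 against 6.1. Genes of any kind had a median difference of 0.04 at a level from -1 to 0 and 0.85 from 6 to 9.

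The counts below stand beside 51.9% higher and 17.1% lower among all genes on the median-centred scale. Extracellular matrix genes had 19 of 32 higher and 4 lower (quantile 12 and 9; median 0.39), with COL18A1 (1.49) and TGFBI (1.47). Receptor tyrosine kinases had 13 of 26 higher and 2 lower (quantile 9 and 3; median 0.27), with ERBB2 (1.45) and EPHB4 (1.09), and integrins and cadherins 11 of 20 and 4 (quantile 8 and 7), with ITGB5 at 0.97. Cytokines and growth factors had 16 of 33 higher and 10 lower (quantile 12 and 13; median 0.16, quantile -0.01), from IL11 (-0.98) to MIF (1.08). Cytoskeleton genes had 30 of 32 higher and 1 lower (quantile 16 and 10; median 0.69), with KRT19 at 1.92 and KRT8 at 1.82. Dynein, kinesin and myosin genes, listed as heavy chains but with the intermediate chain DYNC1I2 among them, had 22 of 25 higher and 3 lower (quantile 15 and 4; median 0.63, quantile 0.31), with MYO6 at 1.63. Nuclear pore and karyopherin genes had 28 of 34 higher and 2 lower (quantile 15 and 11), with NUP85 at 1.51. Metallothioneins and S100 proteins, which are short proteins, had 6 of 17 higher and 3 lower, and 3 higher and 11 lower on the quantile scale (median 0.02, quantile -0.49); S100A4 was higher by 0.85 (loess -0.13). When 8121 protein-coding genes were ordered by genomic span into 5 classes, the median difference was 0.50 in the class of shortest and 0.31 in that of longest span (quantile 0.10 and -0.05), and 5 classes of GC content after the start gave medians from 0.37 to 0.50 with no order.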
